A study of Saccharomyces cerevisiae with 95 samples.

Results

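The genes that encode the subunits of 5 general transcription factors were examined as binding sites for those same factors. They were SPT15, which encodes TBP, TOA1 and TOA2 of TFIIA, SUA7, which encodes TFIIB, TFA1 and TFA2 of TFIIE, and TFG1 and TFG2 of TFIIF. A site was taken for a gene when its midpoint lay from 500 bp upstream to 200 bp downstream of the annotated start, and the nearest such site was kept for each gene and factor. This gave 37 of 40 possible pairs of gene and factor, on 37 of the 20232 sites in the tables.

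The data came from competition ChIP-seq in diploid W303 budding yeast. In each strain one allele of a factor gene carried 9xMyc at its N-terminus under its own promoter, and the other carried 3xHA at its N-terminus under the galactose-inducible GAL1 promoter. TBP and TFIIB are single proteins, while Toa1, Tfa1 and Tfg2 were the tagged subunits of TFIIA, TFIIE and TFIIF. In those 3 strains an allele of the partner gene, TOA2, TFA2 or TFG1, was placed under GAL1 with no tag. Cultures grown in raffinose received galactose at time 0, and chromatin was immunoprecipitated with HA or Myc antibodies at 8 times, which were 120, 90, 40 and 60 min and, before those, 30, 25, 20 and 10 min.

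Each factor, tag and time was represented by 1 library, and the error of a trend is therefore the spread of its 8 times around the fitted line. Every strain had 1 or 2 of the 8 genes altered at a locus being measured. Such a pair is called edited here, and the others unedited. With a site there were 7 edited and 30 unedited pairs. The counts were per interval of the reference genome, so reads from the 2 alleles of an edited gene cannot be told apart, and neither can the factor and its strain.

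General transcription factors assemble with RNA polymerase II at core promoters. TBP binds and bends promoter DNA, often at a TATA sequence, TFIIA stabilises that complex and TFIIB bridges it to the polymerase. TFIIF arrives with the polymerase, and TFIIE follows and recruits TFIIH, the complex that opens the DNA. The promoters of their own genes are polymerase II promoters too, and in the edited pairs an allele had the GAL1 promoter instead.

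The 5 promoter windows below belong to the genes on which the results turn, and run from 250 bases before the annotated start to 50 bases from the start codon on. They are RefSeq sequence of the R64 (sacCer3) reference, 5′ to 3′ on the gene's strand. Capitals mark the start codon and any match to TATAAA or TATATA on either strand, or to TTACCCG, the site of the factor Reb1, on either strand. TATATA is its own reverse complement, and on the opposite strand the other motifs read TTTATA and CGGGTAA.
SPT15: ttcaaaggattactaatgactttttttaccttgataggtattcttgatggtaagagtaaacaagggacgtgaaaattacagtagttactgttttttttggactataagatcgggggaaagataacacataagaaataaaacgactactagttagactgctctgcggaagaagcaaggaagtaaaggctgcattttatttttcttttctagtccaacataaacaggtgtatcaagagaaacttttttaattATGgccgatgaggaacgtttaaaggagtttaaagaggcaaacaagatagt
TOA2: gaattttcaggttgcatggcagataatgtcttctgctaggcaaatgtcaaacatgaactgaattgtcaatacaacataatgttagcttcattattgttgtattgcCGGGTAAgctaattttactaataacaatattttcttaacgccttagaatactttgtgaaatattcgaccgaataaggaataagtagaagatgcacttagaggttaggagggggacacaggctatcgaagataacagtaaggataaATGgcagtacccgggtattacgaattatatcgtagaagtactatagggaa
SUA7: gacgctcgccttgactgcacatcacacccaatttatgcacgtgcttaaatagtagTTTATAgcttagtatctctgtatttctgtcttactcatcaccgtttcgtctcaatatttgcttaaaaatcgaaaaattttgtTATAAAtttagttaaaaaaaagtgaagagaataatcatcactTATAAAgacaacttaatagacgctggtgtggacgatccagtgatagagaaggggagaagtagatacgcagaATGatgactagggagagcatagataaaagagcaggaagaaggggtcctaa
TFA2: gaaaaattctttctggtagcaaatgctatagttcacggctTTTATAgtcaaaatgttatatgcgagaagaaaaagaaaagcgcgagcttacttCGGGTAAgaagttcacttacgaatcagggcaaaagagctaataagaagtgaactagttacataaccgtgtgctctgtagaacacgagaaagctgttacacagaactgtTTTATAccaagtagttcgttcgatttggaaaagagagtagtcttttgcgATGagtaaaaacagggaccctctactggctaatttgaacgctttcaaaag
TFG1: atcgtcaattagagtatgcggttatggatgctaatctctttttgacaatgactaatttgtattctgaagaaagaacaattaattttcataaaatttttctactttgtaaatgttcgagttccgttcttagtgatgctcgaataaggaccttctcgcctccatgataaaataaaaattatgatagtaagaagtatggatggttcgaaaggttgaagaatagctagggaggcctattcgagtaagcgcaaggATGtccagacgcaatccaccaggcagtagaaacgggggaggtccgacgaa
SPT15 was on chromosome V (chrV:465053-465352, plus strand), TOA2 on XI (chrXI:329916-330215, plus), SUA7 on XVI (chrXVI:709851-710150, plus), TFA2 on XI (chrXI:559416-559715, plus) and TFG1 on VII (chrVII:867524-867823, plus).

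Of the 8 windows, 3 held a TATA match, namely those of TOA1, SUA7 and TFA2, against 59.9% of 6001 protein-coding genes. SUA7 had 3 matches, the nearest of them 71 to 66 bases before the start. TFA2 had a TATA match 49 to 44 bases and another 210 to 205 bases before the start, and both TOA1 matches lay between 202 and 176 bases before its start. A Reb1 match stood 145 to 139 bases before the TOA2 start and 157 to 151 bases before the TFA2 start, a motif held by 7.1% of all windows. No window of the 8 held the Gal4 motif, CGG and CCG with 11 bases between them, which 1.3% of all windows held. A match is a description of the letters only.

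The genes differed in how much other sequence their sites served. TOA2 (YKL058W, chrXI:330166-330534) and TFA1 (YKL028W, chrXI:385758-387206) had no other gene start within 600 bp. Each of the other 6 shared its upstream region with a divergent gene. SPT15 (YER148W, chrV:465303-466025) faced SCC4 at 461 bp, TOA1 (YOR194C, chrXV:711683-712543) faced SLK19 at 323 bp and SUA7 (YPR086W, chrXVI:710101-711138) faced ASA1 at 273 bp. TFA2 (YKR062W, chrXI:559666-560652) faced SNR42, a small nucleolar RNA gene, at 300 bp, TFG1 (YGR186W, chrVII:867774-869981) faced TYS1 at 254 bp and TFG2 (YGR005C, chrVII:504657-505859) faced PRP18 at 211 bp.

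**Figure D1:**
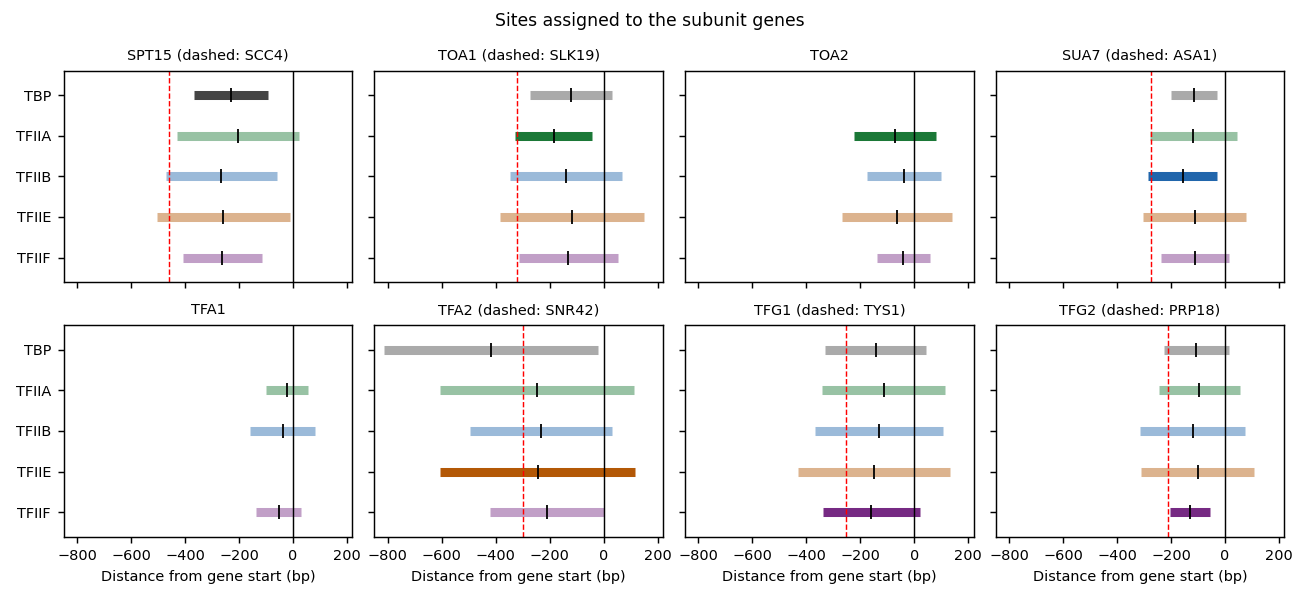
Extent of each assigned site (bar) and its midpoint (tick) in bp from the annotated start of the gene (solid line), by factor, with edited pairs in full colour and the start of the divergent neighbour dashed. The TFA2 sites span the SNR42 start in all 5 factors, while the TOA2 and TFA1 sites lie over the start of the gene itself.

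As the map of the sites shows, 30 of the 37 sites also fell in the window of the divergent neighbour, and in 17 the midpoint was nearer to the neighbour's start. The TFA2 sites were the extreme case, with midpoints from 211.5 bp (TFIIF) to 417.5 bp (TBP) upstream of TFA2 and nearer to SNR42 in all 5 factors. Binding there cannot be assigned to TFA2 rather than SNR42, and the same limit holds for every shared site. Among the edited pairs, midpoints were also nearer to SLK19 for TOA1 in TFIIA and to ASA1 for SUA7 in TFIIB. In the TFIIF strain they were nearer to TYS1 for TFG1 and to PRP18 for TFG2. The TFG1 midpoint in TFIIE was likewise nearer to TYS1. In contrast, TOA2 midpoints lay 39 to 70 bp upstream of its start and TFA1 midpoints 22 to 53 bp. The site covered the start base, next to which the cassettes of the edited strains lie, in 25 of the 30 unedited pairs but in 3 of the 7 edited ones. Those 3 were TOA2 in TFIIA, TFA2 in TFIIE and TFG1 in TFIIF, the untagged partner genes. The sites of the tagged SPT15, TOA1, SUA7 and TFG2 ended upstream of the start base. Among unedited pairs, so did the SPT15 sites in TFIIB, TFIIE and TFIIF and the SUA7 and TFA2 sites in TBP.

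No site lay in the window for 3 pairs. The nearest TBP midpoint to TOA2 lay 573.5 bp downstream of its start. For TFA1 the nearest midpoint was 926.5 bp upstream in TBP and 916.5 bp upstream in TFIIE, the factor whose strain carried the edited TFA1.

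Library totals in sites ran from 2740185 to 19483568 counts. Mitochondrial sites took up to 61.8% of a TFIIF library. Counts at the members' sites ran from 28, at TFG2 in the TFIIF HA library of 10 min (95% exact Poisson interval 18.6 to 40.5, counting error only), to 11891, at TFA2 in a TFIIB Myc library. Relative occupancy below is the count per bp of a site divided by that of the median nuclear site of the same library, so 1 is a typical site. How far sites stood apart, the SD of log2 counts per bp, varied by library, and in TFIIE Myc libraries it was 0.66 at 10 min but 0.32 at 120 min. In TFIIF HA libraries it was 0.66 at 10 min, 0.30 at 20 min and 0.75 at 60 min. In TBP HA libraries it was 0.49 at 10 min and 0.96 at 60 min.

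The level of the Myc copy, made from the factor's own promoter, is described first. TFA2 had the highest Myc level of the members in TFIIA, TFIIB, TFIIE and TFIIF, with mean log2 relative occupancies of 0.95 ± 0.11, 1.73 ± 0.19, 1.25 ± 0.36 and 0.88 ± 0.24 (SD, n = 8 times). Its lowest percentile among nuclear sites in any of those 32 Myc libraries was 92.0. These SDs include change with time, since time points are not replicates.

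**Figure D2:**
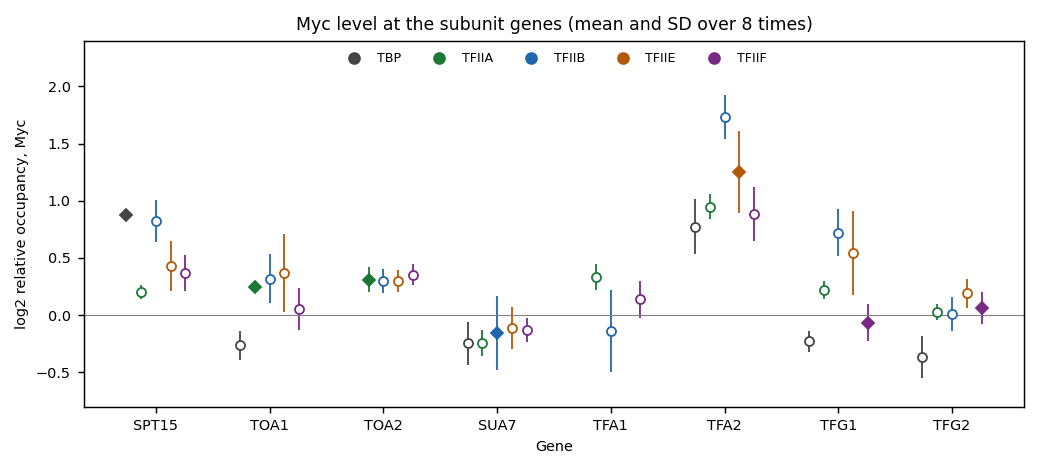
Mean log2 relative occupancy of the Myc copy at each gene, with the SD over 8 times as bars and filled diamonds for edited pairs. TFA2 is highest in 4 factors, SPT15 leads in TBP at 0.88, and SUA7 lies below the typical site in all 5.

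SPT15 led in TBP, the factor it encodes, with 0.88 ± 0.04, although its 1-SD range overlapped that of TFA2 at 0.77 ± 0.24. That SPT15 pair was edited, and in TFIIB, where SPT15 was unedited, its mean was 0.823 ± 0.185. Its Myc relative occupancy in the TBP strain was 1.76 at the lowest, 1.84 at the median and 1.92 at the highest of the 8 times, at percentiles from 87.4 to 89.97 of the nuclear sites. The other 4 genes with a TBP site were all below the typical site, from -0.23 ± 0.09 for TFG1 to -0.37 ± 0.18 for TFG2. Between these 4 the neighbouring ranges overlapped.

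SUA7 stood at the other end. Its mean was below the typical site in every factor, from -0.11 ± 0.19 in TFIIE to -0.25 ± 0.18 in TBP. It was the lowest member in TFIIA, TFIIB, TFIIE and TFIIF, and the 1-SD range cleared that of the next gene only in TFIIA. TOA2 was the most even across factors, between 0.30 and 0.35 in all 4 with a site.

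The change of HA relative to Myc with time was then tested at each site. The ratio slope is the change of log2(HA/Myc) per doubling of time, relative to the scaling of the libraries, from edgeR's quasi-likelihood test with p adjusted over all sites of the factor. At a threshold of 0.05 on the adjusted p, 8 of the 37 member sites passed, 3 of the 7 edited and 5 of the 30 unedited, and all 8 rose. In the whole tables this threshold was passed, in either direction and then rising, by 7.89% and 6.64% of sites in TBP, 17.0% and 7.60% in TFIIA, 1.21% and 0.669% in TFIIB, 60.3% and 29.4% in TFIIE, and 36.5% and 19.4% in TFIIF. The members that passed were 0 of 6 in TBP, 2 of 8 in TFIIA, 0 of 8 in TFIIB, 3 of 7 in TFIIE and 3 of 8 in TFIIF. The 3 edited ones were the untagged partner genes whose sites covered the start base, so these properties cannot be told apart. TFA2, TFG1, TOA1 and TOA2 accounted for all 8, and no SPT15, SUA7, TFA1 or TFG2 site passed. Under some alternative settings SPT15 and SUA7 passed in TFIIE or TFIIF, and TFA1 and TFG2 in TFIIF. For TBP and TFIIB, DESeq2 also called 0, and 0 had an unadjusted p under 0.05. With subtraction of the 5th percentile of each library and limma, TFA2 in TFIIF (2.08, adjusted p 0.0432), TOA1 in TFIIE and TFG1 in TFIIE still passed, and the other 5, all 3 edited pairs among them, did not. Whether a slope differed between factors was not tested.

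**Figure D3:**
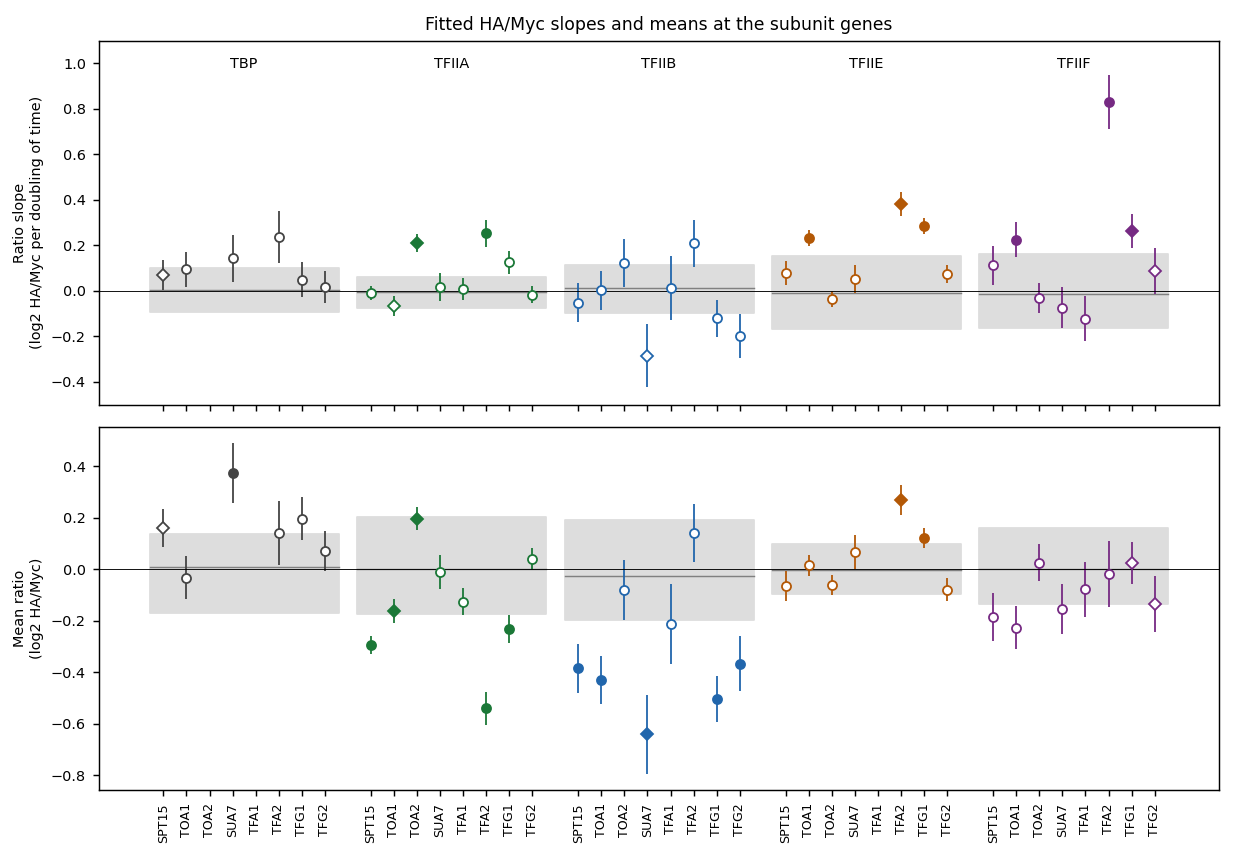
Fitted ratio slope (top, log2 HA/Myc per doubling of time) and mean ratio (bottom, log2 HA/Myc) with standard errors at each gene and factor, filled where the adjusted p passed 0.05 and as diamonds for edited pairs, over the interquartile range (grey band) and median (line) of all sites of the factor. TFA2 lies above the band in all 5 factors for the slope, and 6 of the 8 members lie below it in TFIIB for the mean.

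TFA2 encodes the small subunit of TFIIE, and its site had the widest swing between early and late HA libraries. In TFIIF, where TFA2 was not edited, HA relative occupancy was 0.49 at 10 min, 1.04 at 20 min, 1.07 at 25 min, 1.44 at 30 min, 2.91 at 40 min, 4.02 at 60 min, 3.84 at 90 min and 3.72 at 120 min. Over the same times Myc stayed between 1.37 and 2.32. HA thus went from percentile 4.57 of the sites at 10 min to 97.2 at 120 min, while Myc lay between 91.99 and 97.3.

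The TFIIF ratio slope at TFA2 was 0.83 ± 0.12 (SE, n = 16 libraries), adjusted p 8.17e-05. It exceeded the slopes of 99.2% of TFIIF sites. Mitochondrial sites held most of the counts of the HA libraries at 10 and 25 min, and without those times the fit gave 0.73 (adjusted p 0.012). With a loess offset on average level, which removes change shared by sites of like height, it was 0.51 (adjusted p 0.000531).

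In the edited TFIIE strain the 2 tags at TFA2 moved apart. HA relative occupancy was 1.90 at 10 min, between 2.70 and 3.09 from 20 to 40 min, and 3.34 to 3.40 from 60 min on. Myc was 2.42 at 10 min, peaked at 3.24 at 25 min and was 1.61 at 90 min and 1.74 at 120 min. The HA/Myc ratio relative to the typical site thus went from 0.79 to 1.96, and its slope of 0.38 ± 0.05 passed (adjusted p 0.000112). TFIIE Myc sites as a whole drew together over these times, as given above, and with the loess offset 0.05 was fitted (adjusted p 0.17). The percentile of TFA2 among Myc sites did not fall, being 92.9 at 10 min and 97.4 at 120 min.

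At TFIIA the Myc level of TFA2 was steady between 1.74 and 2.15, while HA was lowest at 10 min (0.93), highest at 90 min (1.87) and 1.53 at 120 min. Its HA values overlapped the Myc values only at 90 min. The slope was 0.25 ± 0.06 (adjusted p 0.0156), and without 10 min it was 0.25 with an adjusted p of 0.102. Without 90 min it was 0.19 with an adjusted p of 0.0565. The slopes at TBP, 0.24 ± 0.11, and TFIIB, 0.21 ± 0.10, did not pass, with adjusted p of 0.209 and 0.298. Neither passed with DESeq2, and without 120 min the TBP slope did.

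The TFIIA pair TOA1 and TOA2, whose products form 1 complex, was edited in the TFIIA strain at both genes. At TOA2, the untagged partner, HA relative occupancy was 0.92 at 10 min, 1.25 at 20 min, 1.43 at 25 min, 1.42 at 30 min, 1.49 at 40 min, 1.5 at 60 min, 1.80 at 90 min and 1.53 at 120 min. Myc there ran from 1.09 to 1.34. HA was therefore below every Myc value at 10 min and above every one of them from 25 min on.

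The TOA2 ratio slope in TFIIA was 0.21 ± 0.04 (adjusted p 0.00754), above 95.6% of TFIIA sites. Its HA slope alone was 0.20 ± 0.04 (adjusted p 0.0105) and its Myc slope -0.01 ± 0.03. Without 10 min the ratio slope was 0.16 with an adjusted p of 0.077. In the 3 other factors with a site, where TOA2 was not edited, slopes were 0.12 ± 0.10 in TFIIB, -0.04 ± 0.04 in TFIIE and -0.03 ± 0.07 in TFIIF, and none passed.

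TOA1, the tagged gene of the same strain, gave another picture. Its TFIIA HA values ran from 0.94 to 1.27, the highest at 10 min, and Myc from 1.14 to 1.24. The ratio slope was -0.07 ± 0.04 and did not pass (adjusted p 0.317). TOA1 rose instead in TFIIE, by 0.23 ± 0.03 (adjusted p 0.000223), and in TFIIF, by 0.23 ± 0.08 (adjusted p 0.0306). These slopes were above 82.2% of TFIIE sites and 80.1% of TFIIF sites.

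In TFIIE the TOA1 Myc values were 1.63 at 10 min and 0.92 at 90 min, a Myc slope of -0.24 ± 0.04 (adjusted p 0.000729), while HA lay between 1.08 and 1.47. With the loess offset the ratio slope was 0.14 (adjusted p 0.00768). In TFIIF the TOA1 rise rested on 10 min, the time of the lowest HA value of 0.60. Without it the slope was 0.10 (adjusted p 0.365). Without 120 min it was 0.24 (adjusted p 0.0677) and with the loess offset 0.21 (adjusted p 0.059). It also failed with linear time.

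TFG1 encodes the large subunit of TFIIF. In the TFIIF strain, where a TFG1 allele was placed under GAL1, HA relative occupancy was 0.93 at 10 min and between 0.70 and 0.81 from 20 to 30 min. It was 0.96 at 40 min and 1.31 to 1.38 from 60 min on. Myc stayed between 0.85 and 1.13, so HA exceeded every Myc value from 60 min. The ratio slope was 0.26 ± 0.07 (adjusted p 0.0117), above 82.7% of TFIIF sites. It passed with any 1 time left out, but not with background subtraction and limma, where 1.25 was fitted (adjusted p 0.243).

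TFG2, the tagged gene of that strain, had an HA value of 0.51 at 10 min and 0.79 to 1.12 later, and its slope of 0.09 ± 0.10 did not pass (adjusted p 0.528). With the loess offset the TFG2 slope passed the threshold. In TFIIE, where it was unedited, TFG1 rose by 0.29 ± 0.04 (adjusted p 6.01e-05), above 87.3% of TFIIE sites. Its Myc values there ran from 1.84 at 20 min down to 0.96 at 120 min, and HA was 1.24 at 10 min and between 1.5 and 1.75 later. With the loess offset that slope was 0.14 (adjusted p 0.00792).

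**Figure D4:**
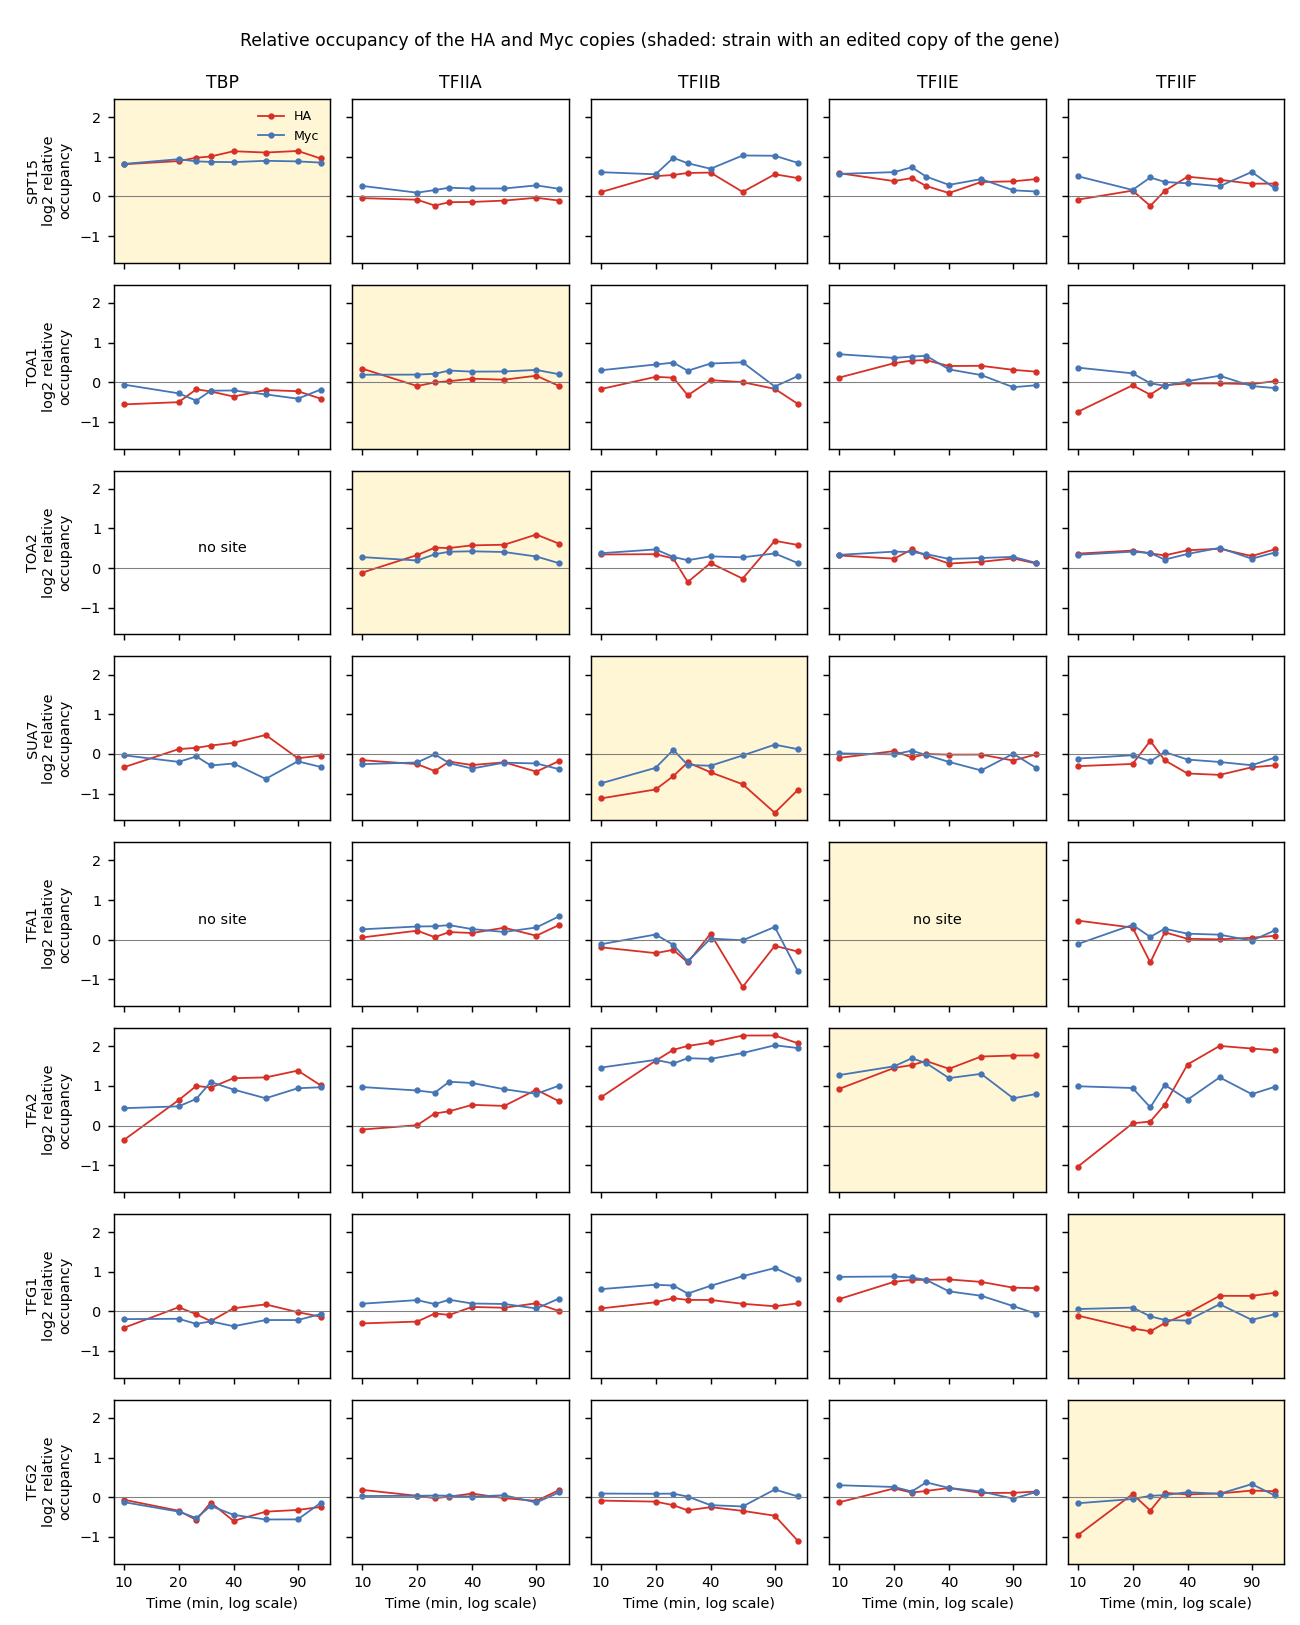
Log2 relative occupancy of the HA (red) and Myc (blue) copies against time on a log scale, 1 library per point, for each gene (rows) and factor (columns), shaded where the strain carried an edited copy of the gene. TFA2 shows the largest HA rise, in TFIIF from 0.49 to 4.02 on the linear scale, and SUA7 in TFIIB shows HA below Myc at 7 of 8 times.

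The slopes of each tag alone are given for the same sites. Myc slopes passed at 5 member sites, 0 of 6 in TBP, 0 of 8 in TFIIA, 1 of 8 in TFIIB, 4 of 7 in TFIIE and 0 of 8 in TFIIF. The share of all sites that passed was 2.26%, 0.407%, 20.2%, 60.3% and 0.766% in these factors. Of all TFIIE sites that passed, 1383 rose and 1313 fell. The 4 TFIIE member sites were SPT15, TOA1, TFA2 and TFG1, with slopes from -0.26 for TFG1 to -0.13 for SPT15. The TFIIB member site was TFA2 at 0.14 ± 0.04 (adjusted p 0.04). That call was lost with the loess offset, scaling by total count or linear time. It was also lost without any 1 of 10, 20, 25, 60, 90 or 120 min. Where no member passed, 0, 0 and 1 had an unadjusted p under 0.05 in TBP, TFIIA and TFIIF, and DESeq2 called 0. SPT15 in TFIIE did not pass with the loess offset (-0.05, adjusted p 0.266), without 90 min (adjusted p 0.0521) or without 120 min (adjusted p 0.083). Its site there also fell outside the window of 250 bp upstream to 100 bp downstream. In the TFIIE fit without 90 and 120 min none of the 4 passed. The TFA2 call in TFIIE, at -0.19, was the edited pair, and it also was not kept with the loess offset, where its slope was 0.09 (adjusted p 0.0532), or without any time but 10 or 60 min.

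HA slopes passed at 6 member sites, 3 of the 7 edited and 3 of the 30 unedited. By factor these were 0 of 6 in TBP, 3 of 8 in TFIIA, 0 of 8 in TFIIB, 1 of 7 in TFIIE and 2 of 8 in TFIIF. The shares of all sites were 16.1%, 21.7%, 8.70%, 6.82% and 43.2%. Of all sites that passed in TFIIA, TFIIE and TFIIF, 423, 136 and 811 rose and 375, 169 and 770 fell. Among the members, TFA2 rose in TFIIA, TFIIE and TFIIF, TOA2 in TFIIA, and TFG1 in TFIIA and TFIIF. The edited pairs among them were TOA2 in TFIIA, TFA2 in TFIIE and TFG1 in TFIIF. Each of these 6 slopes was positive, from 0.13 ± 0.03 for TFG1 in TFIIA to 0.89 ± 0.12 for TFA2 in TFIIF. Without 10 min, and with linear time, the 2 in TFIIF were left. The TFA2 call in TFIIE was also lost without 20, 25, 60 or 90 min, that of TFG1 in TFIIA without 20 or 90 min and that of TOA2 without 90 min. In TBP and TFIIB, 1 and 2 members had an unadjusted p under 0.05, and DESeq2 called TFA2 in each.

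The mean ratio, the average log2(HA/Myc) over all times relative to the scaling, passed at 13 member sites, 4 edited and 9 unedited. These were 1 of 6 in TBP, 5 of 8 in TFIIA, 5 of 8 in TFIIB, 2 of 7 in TFIIE and 0 of 8 in TFIIF, against 26.0%, 64.4%, 33.3%, 24.5% and 18.9% of all sites. In TFIIF 1 member, TOA1, had an unadjusted p under 0.05 and was called by DESeq2. The TFIIB calls all lay below 0. They were SUA7 at -0.64, TFG1 at -0.50, TOA1 at -0.43, SPT15 at -0.38 and TFG2 at -0.37, each within the lowest 10% of TFIIB sites. The TFG2 call was lost without 120 min. With the window of 250 bp upstream to 100 bp downstream, the SPT15 site, 265.5 bp upstream, fell outside and its call was lost. For all of these but TOA1 the midpoint was nearer to the start of the divergent neighbour. Of all TFIIB sites, 702 passed above 0 and 640 below.

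SUA7 in TFIIB was the edited pair and the lowest of these, below all but 1.2% of TFIIB sites. Its midpoint was nearer to the ASA1 start, so binding there cannot be assigned to SUA7 rather than ASA1. HA relative occupancy at SUA7 in that strain was 0.46 at 10 min, 0.54 at 20 min, 0.68 at 25 min, 0.86 at 30 min, 0.72 at 40 min, 0.59 at 60 min, 0.36 at 90 min and 0.53 at 120 min. Myc was 0.60, 0.78, 1.07, 0.82, 0.81, 0.97, 1.18 and 1.09 at those times. HA was thus below Myc at every time but 30 min, where they were nearly equal at a ratio of 1.05.

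The SUA7 mean ratio in TFIIB was -0.64 ± 0.15 (adjusted p 0.00248) and passed under every alternative run, from -0.82 with the loess offset to -0.49 without 90 min. Its slope over time, -0.29 ± 0.14, did not pass (adjusted p 0.298), nor did its Myc slope of 0.21 ± 0.07 (adjusted p 0.0517), which passed with DESeq2 size factors. In TBP, where SUA7 was unedited, its mean ratio was the only member call, at 0.37 ± 0.12 (adjusted p 0.0243). Without 60 min it was 0.27 with an adjusted p of 0.115, and it was likewise lost without 30 or 40 min.

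At TFIIA the mean ratio was lower than at the typical site for TFA2 (-0.54 ± 0.06), SPT15 (-0.29 ± 0.04), TFG1 (-0.23 ± 0.06) and TOA1 (-0.16 ± 0.05). It was higher for TOA2, at 0.20 ± 0.04. The percentiles among TFIIA sites were 3.8 for TFA2, 14.0 for SPT15, 18.8 for TFG1, 26.2 for TOA1 and 74.4 for TOA2. TOA1 and TOA2 thus lay within the interquartile range of all TFIIA sites, -0.175 to 0.203. With scaling by total count in sites, which moved the median of all TFIIA sites to -0.48, TOA2 was at -0.29 and so still above that median. Without 120 min it was 0.11 with an adjusted p of 0.0516. In TFIIE the calls were TFA2 at 0.27 ± 0.06 and TFG1 at 0.12 ± 0.04, and both were lost without 90 or 120 min or both, with the loess offset (0.09 and 0.06) and with no time block. The TFG1 call was lost also with scaling by total count and without 30, 40 or 60 min.

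In the main fit SPT15 passed for no ratio slope in any of the 5 factors, including TBP in its own strain. There its HA relative occupancy was 1.76 at 10 min, 1.86 at 20 min, 1.97 at 25 min and 2.01 at 30 min. It was between 2.15 and 2.21 from 40 to 90 min, and 1.94 at 120 min. Its HA rank did not rise, being at percentile 97.1 of the nuclear sites at 10 min and between 87.9 and 90.1 later. Myc stayed between 1.76 and 1.92. The HA values were above every Myc value at each time from 25 min on. The ratio slope was nonetheless 0.07 ± 0.07 (adjusted p 0.573) and the mean ratio 0.16 ± 0.07 (adjusted p 0.118). That mean ratio passed without 10 min and with scaling by total count. The SPT15 ratio slope passed in TFIIE without 10 min and in TFIIF with scaling by total count.

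Of the Myc libraries taken before galactose, the TFIIB one was used here, and those of the other 4 factors were not analysed. SUA7, TFA1, TFA2 and TFG1 were then within their range of the later 8 Myc libraries, SUA7 at 0.64 against 0.60 to 1.18. SPT15 was below its later range, at 1.05 against 1.47 to 2.05. TOA1, TOA2 and TFG2 were above theirs, TOA1 at 1.57 against 0.93 to 1.42. With 1 library at 0 min no test was made.

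A list of 43 genes for other parts of the machinery gave the setting for these counts. It held TFIID subunits, TFIIH subunits, RNA polymerase II subunits, regulators of TBP and TFIIIB subunits. Ratio slopes passed at 0 of 29 genes with a site in TBP, 1 of 33 in TFIIA, 0 of 38 in TFIIB, 28 of 40 in TFIIE (18 rising, 10 falling) and 9 of 35 in TFIIF, all rising. The shares of all sites were 7.89%, 17.0%, 1.21%, 60.3% and 36.5% in these factors. Sites that passed and rose were 29.4% of all sites in TFIIE and 19.4% in TFIIF. In TBP and TFIIB, 1 and 2 of these genes had an unadjusted p under 0.05, and DESeq2 called 0. In TFIIA the gene was RPO26, a polymerase subunit, at 0.14 ± 0.04 (adjusted p 0.0217). In TFIIE the slopes that passed ran from -0.28 ± 0.05 at TFB4, a TFIIH subunit, to 0.34 ± 0.05 at TAF9, a TFIID subunit. In TFIIF they ran from 0.22 ± 0.08 at BUR6, a subunit of the TBP repressor NC2, to 0.51 ± 0.13 at MOT1, the ATPase that removes TBP from DNA. Of the 35 with a TFIIF site, MOT1 had the highest fitted slope, against 0.83 for TFA2.

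The list's mean ratios also leaned low in TFIIB, where 12 passed below 0 and 3 above, with a median of -0.16 over 38 genes against -0.03 over all sites. Mean ratios passed at 7 of 29 in TBP (5 higher, 2 lower), 19 of 33 in TFIIA (7 higher, 12 lower), 12 of 40 in TFIIE (8 higher, 4 lower) and 10 of 35 in TFIIF (4 higher, 6 lower). The shares of all sites were 26.0%, 64.4%, 24.5% and 18.9% in these 4 factors and 33.3% in TFIIB. Myc slopes passed at 1 of 38 genes in TFIIB, rising, and 22 of 40 in TFIIE, 7 rising and 15 falling. None passed in the other 3 factors. Of all sites, 20.2% passed in TFIIB, 60.3% in TFIIE, and 2.26%, 0.407% and 0.766% in TBP, TFIIA and TFIIF. HA slopes passed at 8 of 33 in TFIIA (7 rising), 1 of 40 in TFIIE, rising, and 14 of 35 in TFIIF (11 rising). They passed at none in TBP and TFIIB. Of all sites, 21.7% passed in TFIIA, 6.82% in TFIIE, 43.2% in TFIIF, 16.1% in TBP and 8.70% in TFIIB. In those groups with none, unadjusted p values under 0.05 numbered 4, 0 and 4 for Myc in TBP, TFIIA and TFIIF, and 1 and 7 for HA in TBP and TFIIB, and DESeq2 called 1, 0, 1, 1 and 1.

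Likeness of pattern was the Pearson correlation of log2 counts per bp, relative to the library median and centred within factor and tag, over 80 libraries. It was computed among 2754 genes with a site in all 5 factors and is a description, since libraries share depth and contrast. Genes that shared a site with a member were left out of its comparison. Each member compared had the same site as its divergent neighbour in all 5 factors. The pattern cannot therefore be assigned to the member rather than the neighbour. The libraries of edited strains were included, so the r of each member below mixes edited and unedited pairs. For TFA2 the gene most alike was SNR34, another small nucleolar RNA gene, at r = 0.96, against a median r of 0.23 over the 2752 genes compared. For TFG1 it was RPS17B, which encodes a ribosomal protein, at 0.83, for SPT15 ROT1 at 0.75 and for TOA1 QCR7 at 0.71. For TFG2 it was RPN11, a proteasome subunit, at 0.66, and for SUA7 PMT4 at 0.52.

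Among the 6 members with a site in all 5 factors, the pair most alike was TFA2 and TFG1, at r = 0.66. TFG1 and TFG2, the subunits of a single complex and both edited in the TFIIF strain, had 0.16. SUA7 was least like the rest, from -0.03 with TFG2 to 0.16 with TFG1.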

How the data were processed

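Competition ChIP-seq counts were analysed for 5 factors, 2 tags and 8 times, with 1 library each. As the labels and the study's methods state, reads were mapped by the authors to sacCer3 with Bowtie2 2.2.6, peaks were called with MACS2 2.1.0.20151222 on early Myc libraries against input, and reads were counted with bedtools in intervals merged by factor. The deposited raw counts were not scaled. Of 95 samples, 81 had a count column, and 14 input or 0 min samples were not analysed here. Site starts are as the files give them.

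Gene starts came from the R64 annotation. Sites averaging under 10 counts over the libraries fitted were left out. Ratio slope and mean ratio were fitted in edgeR 4.0.16 (R 4.3.3) with TMM scaling, quasi-likelihood tests, time as a block, tag, and tag by log2(time), on 16 libraries with 6 residual degrees of freedom. HA and Myc slopes used each tag alone. Benjamini-Hochberg adjustment ran over all sites of a factor. Scripts were tested on simulated data. Since the times of a factor are samples of 1 course, p-values measure scatter about the trend only.

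The alternatives were DESeq2 1.42.0 size factors and Wald test, total counts, a loess offset, no count filter or a minimum of 50, linear time, no time block, subtraction of the 5th percentile with limma 3.58.1, a window of 250 bp upstream to 100 bp downstream, and each time left out. Fits without 10 and 25 min in TFIIF and without 90 and 120 min in TFIIE were chosen after seeing the data. Named were all 8 genes at every factor with a site. For each gene with a site in all 5 factors, the gene most alike among those sharing no site with it was named. For the machinery list, the lowest and highest ratio slope that passed in each factor were named. The members, the lists and the tests were chosen with earlier results of these data known. Python 3.11.15 was used.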

Additional observations from a re-analysis of the deposited data

How the results depend on the processing

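Counts of member sites that passed were compared over all alternatives. With background subtraction and limma, ratio slopes passed at 3 unedited and 0 edited sites (1 edited site at an unadjusted p under 0.05), and with linear time at 3 unedited sites. Scaling by total counts, which moved the median site slope of TFIIF by 0.51, gave 10 unedited calls for the ratio slope, 17 for the mean ratio and 9 for the HA slope. The DESeq2 Wald test gave 6 unedited HA slopes and 2 edited Myc slopes, and DESeq2 size factors 2 edited Myc slopes. With linear time HA slopes passed at 1 unedited and 1 edited site. Without 90 and 120 min in TFIIE, chosen after seeing the data, Myc slopes passed at 1 unedited and 0 edited sites (1 edited at an unadjusted p under 0.05), and the TFG1 mean ratio in TFIIE was -0.002. The sign also changed for the TOA2 mean ratio in TFIIA with total counts (-0.29) and the TFA2 Myc slope in TFIIE with the loess offset (0.086).

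Leaving out each time gave 4 to 6 unedited and 2 to 3 edited ratio slopes, 7 to 13 and 2 to 5 mean ratios, 2 to 4 and 0 to 1 Myc slopes, and 1 to 5 and 1 to 3 HA slopes. The other 124 recomputed counts were within 1.5 times the reported count. The time block pairs the HA and Myc libraries of a time in the ratio fits, and without it 5 unedited and 3 edited ratio slopes and 9 and 3 mean ratios passed. With 28 counts at the shallowest site, small differences in the TFIIF HA library of 10 min were not detectable. The cause of these changes was not tested.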
